A study of Mus musculus with 99 samples.

Results

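Genes for the receptors of glutamate, GABA, glycine, serotonin, acetylcholine, dopamine, ATP, other nucleotides and adenosine were read in single hair cells of the mouse cochlea. They were taken by symbol: Gria, Grin, Grik, Grid, Grm, Gabra, Gabrb, Gabrg, Gabbr, Glra, Glrb, Htr, Chrm, Drd, P2rx, P2ry or Adora, followed by digits, by digits plus letters, or by nothing, without symbols ending in "os". These 17 families held 90 of the 55291 gene rows of the count table, of which 86 are described. Of the 86, 34 had no read in any cell, 13 had at most 3 counts in each group, 15 stayed under 1 CPM (counts per 1000000 counts of the group), 15 lay between 1 and 10 CPM, and 9 reached 10 CPM in 1 or both groups.

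The 9 genes that reached 10 CPM divided into 3 sets. P2rx2 and P2rx4, subunits of ATP-gated cation channels, and Grik5, a kainate receptor subunit, were between 3.76-fold and 6.59-fold lower in converted cells than in outer hair cells. Chrm3, a muscarinic acetylcholine receptor, Grin2c and Grin2d, NMDA receptor subunits, Grm2, a metabotropic glutamate receptor, and P2ry14, a receptor for UDP-sugars, were higher, by 3.91-fold for P2ry14 and by more for the others. Gabbr1, a GABA-B receptor subunit, differed between the groups by 1.17-fold.

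Outer hair cells (OHCs) amplify sound by changing length, and inner hair cells (IHCs) release glutamate onto the auditory nerve. Both kinds receive acetylcholine from efferent fibres at some stage of life, OHCs through nicotinic receptors in the adult, and both respond to ATP. Ionotropic receptors are channels built of several subunits, some of which reach the surface only with a partner: NMDA receptors need Grin1, GABA-A receptors usually combine alpha, beta and gamma subunits, GABA-B receptors pair Gabbr1 with Gabbr2, and Grik5 needs another kainate subunit. Muscarinic, metabotropic glutamate, GABA-B, dopamine, adenosine, P2ry and most serotonin receptors act through G proteins instead.

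The study compared OHCs with cells made from OHCs by ectopic Tbx2, a transcription factor of the IHC fate. The 32 OHCs were wild-type cells of postnatal day 30 from Slc26a5-CreER/+; Ai9/+ mice, in which an inducible Cre is driven by the prestin gene of OHCs and Ai9 is a tdTomato reporter. The 67 converted cells (cIHCs) came from Slc26a5-CreER/+; Rosa26Tbx2/+ mice at postnatal day 42. Both groups carried Slc26a5-CreER on the C57BL/6 strain, all cells were tdTomato-positive and picked by hand, and the genotype given for the cIHCs lists no Ai9. Age and genotype cannot be told apart, and no sample is titled as an endogenous IHC. The labels name no animal, so the cells of a group were summed to 1 sample, and no difference below was tested or has a replicate check.

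The depth was 5656512 to 9287413 counts for an OHC and 4677682 to 13792672 for a cIHC, 242054710 and 544012348 in all. Tbx2, the gene expressed from the transgene, had 3 counts over the OHCs and 112.7 to 2643 CPM in the cIHCs. Per cell, a median of 6068.5 genes had reads in OHCs and 8546 in cIHCs. Genes at the same pooled level in both groups, between 10 and 100 CPM, had reads in an average of 49.97% of OHCs and 71.0% of cIHCs (1303 genes with log2 levels at most 0.25 apart), a gap that touches every share of cells given below. The labels held against marker genes: 6 OHC genes summed to a median of 50763 CPM per OHC and 331.3 CPM per cIHC, and 8 IHC genes to 1361 CPM and 8974 CPM. All 8 general hair cell genes had reads in both groups. Of them 3 were past 2-fold lower in cIHCs and none higher, with a median log2 ratio, cIHC over OHC, of -0.42. Of all genes with more than 3 counts in a group, 18.8% were lower and 42.0% higher. In the GENCODE M21 annotation 31 of the 86 receptor genes share exon bases with another gene, as do 17 of the 39 with a ratio, and their counts are uncertain where the strand was not used.

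Each gene's pooled level is its summed count divided by the group's total and given in CPM, and each difference is the log2 ratio of the pooled levels, cIHC over OHC. A sum under 3 counts was set to 3 over the group, so a ratio against a group without reads is a bound. Intervals are exact at 95% and cover counting error only, because reads were amplified and carry no molecular identifiers. Of the 39 receptor genes with more than 3 counts in a group, 24 were past 2-fold higher in cIHCs, where 42.0% of all 23306 such genes were, and 11 were past 2-fold lower, where 18.8% of all genes were; 4 were within 2-fold. Their median log2 ratio was 2.29, against 0.56 for all genes. Genes could pass 3 counts through the group in which they were high, so these numbers describe the receptor genes and support nothing. Among genes with at least 10 CPM in a group, 5 of the 9 receptor genes were past 2-fold higher (26.3% of all 10041 genes) and 3 were lower (14.3%), with medians of 1.97 and 0.25. At 1 CPM or more, 16 of 24 were higher (34% of all 16005 genes) and 6 lower (19.7%). Scaling by a TMM factor or by the median of ratios would lower every log2 ratio given here by 0.19 or 0.20.

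**Figure D1:**
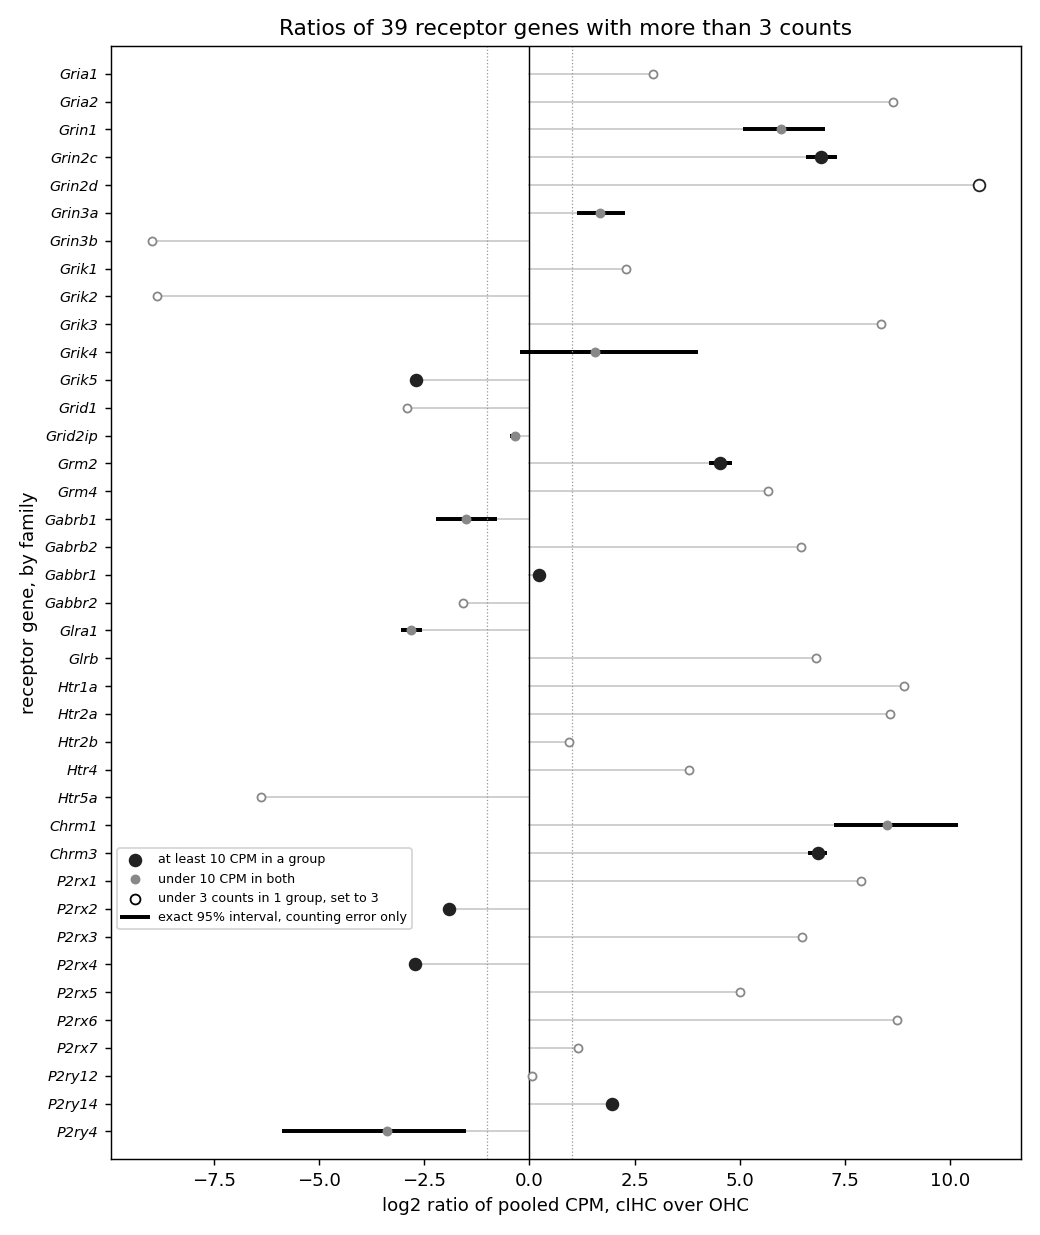
Log2 ratio of pooled CPM, cIHC over OHC, for the 39 receptor genes with more than 3 counts in a group, ordered by family. Filled points carry exact 95% intervals of counting error, open points have under 3 counts in 1 group, set to 3, and dotted lines mark 2-fold. Of the 39 points, 24 lie right of the upper line and 11 left of the lower line.

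ATP receptors took the largest part of receptor reads in OHCs: over the 7 P2rx genes the pooled level was 590.4 CPM, against 150.5 CPM in cIHCs. P2rx2 (chr5:110339812-110343212, minus strand, in mm10), the subunit of the ATP-gated channel best known from hair cells, had 0, 439.5 and 1358 CPM in the lowest, median and highest OHC, and 0, 88.0 and 625.1 CPM in the lowest, median and highest cIHC. The ranges overlapped, with 5 OHCs above the highest cIHC, and the OHC was the higher cell in 85.5% of the 2144 pairs of 1 OHC and 1 cIHC. Its pooled level was 446.8 CPM (444.1 to 449.5) in OHCs and 119.0 CPM (118.0 to 119.9) in cIHCs, a log2 ratio of -1.91 (-1.92 to -1.90). Reads of P2rx2 were present in 31 of 32 OHCs (96.9%, Clopper-Pearson 83.8 to 99.9) and in 56 of 67 cIHCs (83.6%, 72.5 to 91.5), the direction opposite to the general gap in detection.

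P2rx4 (chr5:122707544-122729738, plus strand), whose channels also cycle through lysosomes, had 0, 92.6 and 579.9 CPM in the lowest, median and highest OHC, against 0, 0.30 and 120.1 CPM in cIHCs. The ranges overlapped, but many OHCs stood above all cIHCs: 15 OHCs exceeded the highest cIHC, and the OHC was the higher cell in 75.5% of pairs. Pooled, P2rx4 had 143.6 CPM (142.0 to 145.1) in OHCs and 21.8 CPM (21.4 to 22.2) in cIHCs, a log2 ratio of -2.72 (-2.75 to -2.69). It had reads in 28 OHCs (87.5%, 71.0 to 96.5) and 39 cIHCs (58.2%, 45.5 to 70.2). The medians per cell of 92.6 and 0.30 CPM gave a log2 ratio of -8.25.

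The other 5 P2rx genes were under 10 CPM, with reads in few cells. P2rx6 had 0 counts in OHCs and 2869 in 10 cIHCs, P2rx1 had 0 and 1594 in 10 cIHCs, and P2rx3, the sensory-neuron subunit that can join P2rx2, had 0 and 602 in 4 cIHCs. Exons of P2rx6 share 554 bases with Slc7a4 on the other strand, so its count is uncertain. P2rx5 had 1 and 217 counts, each in 1 cell, a log2 ratio of the counts of 6.59 without the floor (4.10 to 11.90), and P2rx7, the channel of immune cells, had 1 and 15 counts, a log2 ratio of the counts of 2.74 (0.04 to 8.13).

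Among the 9 P2ry genes only P2ry14 (chr3:59113855-59153618, minus strand) reached 10 CPM. It had 0, 0 and 153.1 CPM in the lowest, median and highest OHC and 0, 10.6 and 120.0 CPM in cIHCs. The highest cell of all was an OHC, the source of 68.1% of P2ry14 reads in its group, although the cIHC was the higher cell in 62.9% of pairs and the OHC in 10.4%. Pooled, it had 6.62 CPM (6.30 to 6.95) in OHCs and 25.9 CPM (25.5 to 26.3) in cIHCs, a log2 ratio of 1.97 (1.89 to 2.04), or 3.49 once the top cell of either group was left out. Reads were in 6 OHCs (18.8%, 7.21 to 36.4) and 45 cIHCs (67.2%, 54.6 to 78.2). Among cells with Xist reads the ratio of P2ry14 turned to -0.48, with only 4 OHCs in that split. P2ry4 had 14 counts in 1 OHC and 3 in 1 cIHC, a log2 ratio of -3.39 (-5.83 to -1.55), P2ry12 had 0 and 7, and P2ry1, P2ry2, P2ry6, P2ry10, P2ry10b and P2ry13 had no reads.

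Because immune cells carry several P2ry and P2rx genes, macrophage genes were read in the same cells. The 11 macrophage genes summed to 7.81 pooled CPM in OHCs and 50.96 in cIHCs. They summed to between 0 and 127.2 CPM per OHC and between 0 and 336.9 CPM per cIHC. The sum was at least 10 CPM in 4 of 32 OHCs and 31 of 67 cIHCs. Of 5 with a ratio 2 were past 2-fold lower in cIHCs, beside 18.8% of all genes. One, C1qb, was higher, at 48.2 CPM in 35 cells, beside 42.0% of all genes. C1qa, Cx3cr1 and Aif1 had no reads in either group. Without the cells in which the list summed to 10 CPM or more, which left 28 OHCs and 36 cIHCs, the log2 ratio was 2.35 for P2ry14, -2.39 for P2rx4 and -2.20 for P2rx2.

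**Figure D2:**
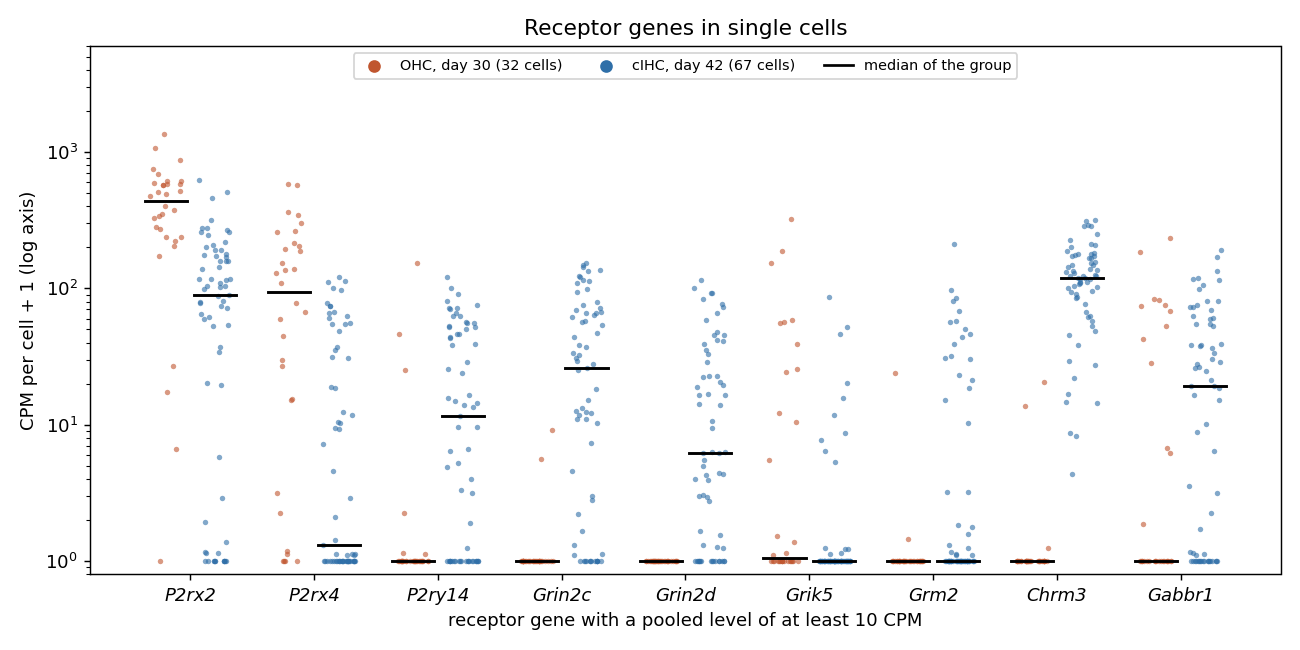
CPM plus 1 in every cell, on a log axis, for the 9 receptor genes with a pooled level of at least 10 CPM, with OHCs in orange, cIHCs in blue and a bar at each group's median. Chrm3 is above 3 CPM in every cIHC and at 0 in 29 of 32 OHCs, whereas Gabbr1 reaches similar levels in both groups.

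Of the 7 NMDA receptor genes, Grin2c and Grin2d were frequent in cIHCs and in at most 2 OHCs, and the other 5 were in at most 3 OHCs and 14 cIHCs. Grin2c (chr11:115249169-115267243, minus strand), a regulatory subunit that gives slow channels with weak magnesium block, had 0, 0 and 8.10 CPM in the lowest, median and highest OHC and 0, 25.2 and 152.2 CPM in cIHCs. Of the 67 cIHCs, 45 were above the highest OHC, and the ranges overlapped in the cIHCs at or near 0. Pooled, Grin2c had 0.34 CPM (0.27 to 0.42) in OHCs and 41.3 CPM (40.8 to 41.8) in cIHCs, a log2 ratio of 6.93 (6.62 to 7.26). Reads were in 2 OHCs (6.25%, 0.77 to 20.8) and 54 cIHCs (80.6%, 69.1 to 89.2), and 43 cIHCs but no OHC reached 10 CPM.

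Grin2d (chr7:45831883-45878378, minus strand), a subunit of slowly deactivating channels known from interneurons, had no read in any OHC, and 0 of 32, taken as 3 of 32, allows a share of cells with reads of up to 9.38%. In cIHCs it had 0, 5.24 and 113.6 CPM in the lowest, median and highest cell, and 51 of 67 (76.1%, 64.1 to 85.7) had reads. Its pooled level of 20.5 CPM (20.2 to 20.9) was at least 1657-fold higher than in OHCs, a log2 ratio of at least 10.69 against the floor of 3 counts. Of the cIHCs, 39 had reads of both Grin2c and Grin2d, 15 of Grin2c alone, 12 of Grin2d alone and 1 of neither. Grin2d was thus in 39 of the 54 cIHCs with Grin2c, beside 51 of all 67. The rank correlation of their levels across the 67 cIHCs was -0.03.

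Grin1, the subunit that every NMDA receptor contains, was far behind them. It had 11 counts in 3 OHCs and 1558 counts in 14 of 67 cIHCs, 0.045 and 2.86 CPM, a log2 ratio of 5.98 (5.13 to 6.98), and its highest cIHC had 57.3 CPM. All 14 of those cIHCs also had Grin2c reads. Exons of Grin1 share 1307 bases with Grin1os on the other strand, those of Grin2d 643 bases with Gm45441 and those of Grin2c 91 bases with Gm25837, so part of their counts is uncertain. Grin3a had 37 counts in 1 OHC and 268 in 3 cIHCs, and its direction turned without cells that hold macrophage genes (-4.07) and among cells with Y-linked reads (-2.45). Grin3b had 668 counts in 1 OHC and none in cIHCs, and shares 1059 exon bases with Tmem259. Grin2a and Grin2b, the main regulatory subunits of the forebrain, had no reads at all.

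Bases upstream of the starts of 3 receptor genes are shown because their levels differ in kind: Grin2c was in most cIHCs, its obligate partner Grin1 in few, and P2rx4 was lower in cIHCs. The sequences are RefSeq promoter windows in GRCm38.p6, the 250 bases before the start, 5′ to 3′ on the gene's strand, at chr11:115267244-115267493 (minus) for Grin2c, chr2:25319188-25319437 (minus) for Grin1 and chr5:122707294-122707543 (plus) for P2rx4. Capitals mark the letters GGTGT, or ACACC for the other strand, the core of the site that T-box factors such as Tbx2 are known to bind.
Grin2c: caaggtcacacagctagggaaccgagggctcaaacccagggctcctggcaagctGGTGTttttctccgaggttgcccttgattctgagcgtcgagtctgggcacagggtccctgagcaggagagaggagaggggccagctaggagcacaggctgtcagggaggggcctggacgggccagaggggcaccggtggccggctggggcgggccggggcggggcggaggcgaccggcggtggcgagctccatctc
Grin1: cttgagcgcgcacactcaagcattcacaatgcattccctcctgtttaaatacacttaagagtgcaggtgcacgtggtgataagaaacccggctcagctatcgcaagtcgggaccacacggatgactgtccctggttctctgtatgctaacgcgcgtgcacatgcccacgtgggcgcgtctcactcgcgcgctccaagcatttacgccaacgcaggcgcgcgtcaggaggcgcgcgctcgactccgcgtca
P2rx4: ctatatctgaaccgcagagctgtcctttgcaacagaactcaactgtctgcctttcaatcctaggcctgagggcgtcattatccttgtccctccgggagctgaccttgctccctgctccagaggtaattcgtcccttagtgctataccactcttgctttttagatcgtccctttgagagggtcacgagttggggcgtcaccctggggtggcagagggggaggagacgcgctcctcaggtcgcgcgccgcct
The core was in 1 place upstream of Grin2c and in none upstream of Grin1 or P2rx4. Of the other genes at 10 CPM that were higher in cIHCs, Chrm3, Grin2d and Grm2 had no core in their windows. P2ry14 had it in some of its windows and not in others, and Adora1, a gene without reads, had it too. Searched on both strands, it was in 24 of 86 windows of the receptor genes (27.9%) and in 36.2% of all 32851 windows of this length. These 86 windows are not 1 for each gene: some genes had several, in part overlapping, and others, P2rx2 among them, had none. The longer site AGGTGTGA, which holds the core, was in 0 of the 86 windows and in 1.12% of all. These matches describe letters in the windows only.

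AMPA receptor genes were low in both groups. Gria2, the subunit that sets calcium permeability and the highest of its family, had 1 count in OHCs and 2700 counts in 5 of 67 cIHCs (7.46%, 2.47 to 16.6), 51.5% of them in 1 cell. Every group median was 0 and the highest cells had 0.11 CPM among OHCs and 144.2 CPM among cIHCs. The pooled levels were 0.0041 and 4.96 CPM, with a log2 ratio of the counts of 10.23 (7.75 to 15.53). Gria1 had 52 counts in 1 cIHC, and Gria3 and Gria4 had at most 3 counts.

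Kainate receptor genes differed in direction. Grik5 (chr7:25009849-25072346, minus strand), a high-affinity subunit that forms no channel alone, had 0, 0.057 and 320.4 CPM in the lowest, median and highest OHC and 0, 0 and 84.9 CPM in cIHCs. Only 3 OHCs were above the highest cIHC, and 38.8% of pairs were tied at 0. Pooled, Grik5 had 27.3 CPM (26.6 to 27.9) in OHCs and 4.18 CPM (4.01 to 4.35) in cIHCs, a log2 ratio of -2.71 (-2.77 to -2.64). Reads of Grik5 were in 16 OHCs (a share of 31.9% to 68.1%) and 15 cIHCs (22.4%, 13.1 to 34.2). Without the cells in which supporting cell and glia genes summed to 100 CPM or more, its ratio was -4.08.

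Of the subunits that Grik5 can join, Grik2 had 618 counts, all in 1 OHC, Grik3 had 2 counts in 1 OHC and 2201 in 7 cIHCs, a log2 ratio of the counts of 8.94 (7.08 to 11.98), and Grik1 had 33 counts in 1 cIHC. Grik4, the other high-affinity subunit, had 3 and 20 counts, a ratio of 1.57 (-0.18 to 3.96). Each of these 4 values rests on few cells. Among cells with Xist reads, with only 4 OHCs, those of Grik1 and Grik4 became -0.55 and -1.89. Grik1 had no read in any OHC, so its sign there comes from the floor of 3 counts and is no reversal. Grik4 had at most 3 OHC counts there, no more than the floor.

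Among the described genes of the Grid family, reads were chiefly of Grid2ip, which the symbol rule takes in but which encodes a scaffold protein and no receptor. Grid2ip had a median of 0 in both groups and a highest cell of 212.6 CPM among OHCs and 124.4 CPM among cIHCs. Its pooled levels were 8.15 CPM (7.79 to 8.51) and 6.43 CPM (6.22 to 6.64), with reads in 6 OHCs (18.8%, 7.21 to 36.4) and 20 cIHCs (29.9%, 19.3 to 42.3). The highest OHC gave 80.8% of its group's Grid2ip reads, and leaving out the top cell of either group moved the log2 ratio from -0.34 (-0.42 to -0.26) to 1.55. Grid1 had 10 counts in 3 OHCs and none in cIHCs.

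Of 7 metabotropic glutamate receptors, Grm2 (chr9:106643095-106656082, minus strand), an inhibitory receptor found on nerve terminals, was the only one at 10 CPM. It had 0, 0 and 22.9 CPM in the lowest, median and highest OHC and 0, 0 and 210.9 CPM in cIHCs. Over all cells 14 cIHCs exceeded the highest OHC, while 51.8% of pairs were tied at 0. The pooled level was 0.66 CPM (0.56 to 0.77) in OHCs and 15.3 CPM (14.96 to 15.62) in cIHCs, a log2 ratio of 4.53 (4.31 to 4.77). Reads were in 2 OHCs (6.25%, 0.77 to 20.8) and 30 cIHCs (44.8%, 32.6 to 57.4). In OHCs 97.5% of Grm2 reads came from 1 cell, and leaving out the top cell of either group gave 9.56. In Grm2, exons share 470 bases with Gm28111 on the other strand. Grm4 had 345 counts in 4 cIHCs, Grm7 at most 3, and Grm3, Grm5, Grm6 and Grm8 none.

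Of the 86 genes, Chrm3 separated the groups most cleanly by cell. Chrm3 (chr13:9875486-10360847, minus strand) encodes a muscarinic receptor that raises calcium through Gq. It had 0, 0 and 19.4 CPM in the lowest, median and highest OHC and 3.34, 118.7 and 314.3 CPM in the lowest, median and highest cIHC. Every cIHC had reads (100%, 94.6 to 100), 61 of 67 were above the highest OHC, and the cIHC was the higher cell in 99.6% of pairs. Reads were in 3 of 32 OHCs (9.38%, 1.98 to 25.0). The pooled level was 1.08 CPM (0.96 to 1.22) in OHCs and 125.0 CPM (124.0 to 125.9) in cIHCs, a log2 ratio of 6.85 (6.68 to 7.03). In OHCs 64.5% of Chrm3 reads came from 1 cell, and leaving out the top cell of either group gave 8.25.

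The other Gq-coupled muscarinic receptor with reads, Chrm1, had 5 counts in 2 OHCs and 4094 counts in 18 cIHCs (26.9%, 16.8 to 39.1), a log2 ratio of 8.51 (7.29 to 10.13). Its highest cells had 0.43 and 86.2 CPM, and its exons share 329 bases with Gm22820 on the other strand. Chrm2 and Chrm5 had no reads and Chrm4 at most 3, which leaves 2 of the 5 genes with more than 3 counts.

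Gabbr1 (chr17:37045966-37075067, plus strand), the GABA-binding subunit of the GABA-B receptor, was the gene at 10 CPM with the smallest difference between the groups. It had 0, 0 and 233.6 CPM in the lowest, median and highest OHC and 0, 18.3 and 189.7 CPM in cIHCs. The single highest cell was an OHC. The pooled level was 29.3 CPM (28.6 to 30.0) in OHCs and 34.3 CPM (33.8 to 34.8) in cIHCs, a log2 ratio of 0.23 (0.19 to 0.27) that the scalings brought to 0.04 and 0.03 and the cells with Xist reads to -0.91. At these close levels reads were in 13 OHCs (40.6%, 23.7 to 59.4) and 49 cIHCs (73.1%, 60.9 to 83.2), beside the 49.97% and 71.0% of genes at like levels.

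Other GABA and glycine receptor genes were in few cells. All 6 Gabra genes together had 1 count in OHCs and 1 in cIHCs. Gabrb2, a beta subunit of GABA-A receptors, had no read in OHCs and 590 counts in 2 cIHCs (2.99%, 0.36 to 10.4), a pooled 1.08 CPM (0.999 to 1.18). The highest cIHC, at 41.1 CPM, held 96.1% of them, and the log2 ratio was at least 6.45, or 1.76 with the top cell of either group left out. Gabrb1 had 44 counts in 4 OHCs and 35 in 4 cIHCs, a log2 ratio between -2.18 and -0.82. The ratio was -0.04 with the top cell of either group left out and changed sign in cells thinned to equal depth (1.45). Thinning kept 29 of 32 OHCs and left out the highest OHC, which held 88.6% of its group's Gabrb1 reads. Gabrg1 and Gabrg3 had no reads. Gabbr2 had 4 counts in 1 OHC and none in cIHCs.

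Glra1, a glycine-binding subunit, had 873 counts in 3 OHCs (9.38%, 1.98 to 25.0) and 280 in 4 cIHCs (5.97%, 1.65 to 14.6), 3.61 and 0.51 CPM, a log2 ratio of -2.81 (-3.01 to -2.61). Medians were 0, and the highest OHC, at 97.3 CPM, gave 89.8% of Glra1 reads in OHCs. Leaving out the top cell of either group brought the ratio of Glra1 to -0.69, within 2-fold, and leaving out the 25% of cells with the fewest genes to -0.71. The highest cIHC had 19.9 CPM of Glra1. Glrb, the subunit that anchors glycine receptors, had 2 counts in 2 OHCs and 753 in 3 cIHCs (4.48%, 0.93 to 12.5), 0.0083 and 1.38 CPM, and a log2 ratio of the counts of 7.39 (5.53 to 10.44). No cell had reads of both Glra1 and Glrb. Glra2 and Glra3 had no reads and Glra4 at most 3.

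Of 14 serotonin receptor genes, 2 reached 1 CPM, both in cIHCs alone. Htr1a, an inhibitory receptor, had 3223 counts in 10 cIHCs (14.9%, 7.40 to 25.7) and none in OHCs, a pooled 5.92 CPM (5.72 to 6.13) with a median of 0 and a highest cell of 88.1 CPM, at least 478.0-fold higher (log2 ratio at least 8.90). Htr2a, a Gq-coupled receptor, had 2589 counts in 12 cIHCs and none in OHCs. The others with reads were Htr4 (93 counts in 2 cIHCs), Htr2b (13 in 2 cIHCs) and Htr5a (112 in 1 OHC). Htr5b and Htr7 had at most 3 counts, and Htr1b, Htr1d, Htr1f, Htr2c, Htr3a, Htr3b and Htr6 none.

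Dopamine and adenosine receptor genes were not detectable as families at this depth. The 5 Drd genes held 1 count in OHCs and 2 in cIHCs, with no read of Drd3 or Drd5. The 4 Adora genes held 1 and 1, both from Adora2a, with none of Adora1, Adora2b or Adora3. With 67 cells, a gene without reads could have reads in up to 4.48% of cIHCs, a limit on cells with reads and not on cells that express the gene.

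**Figure D3:**
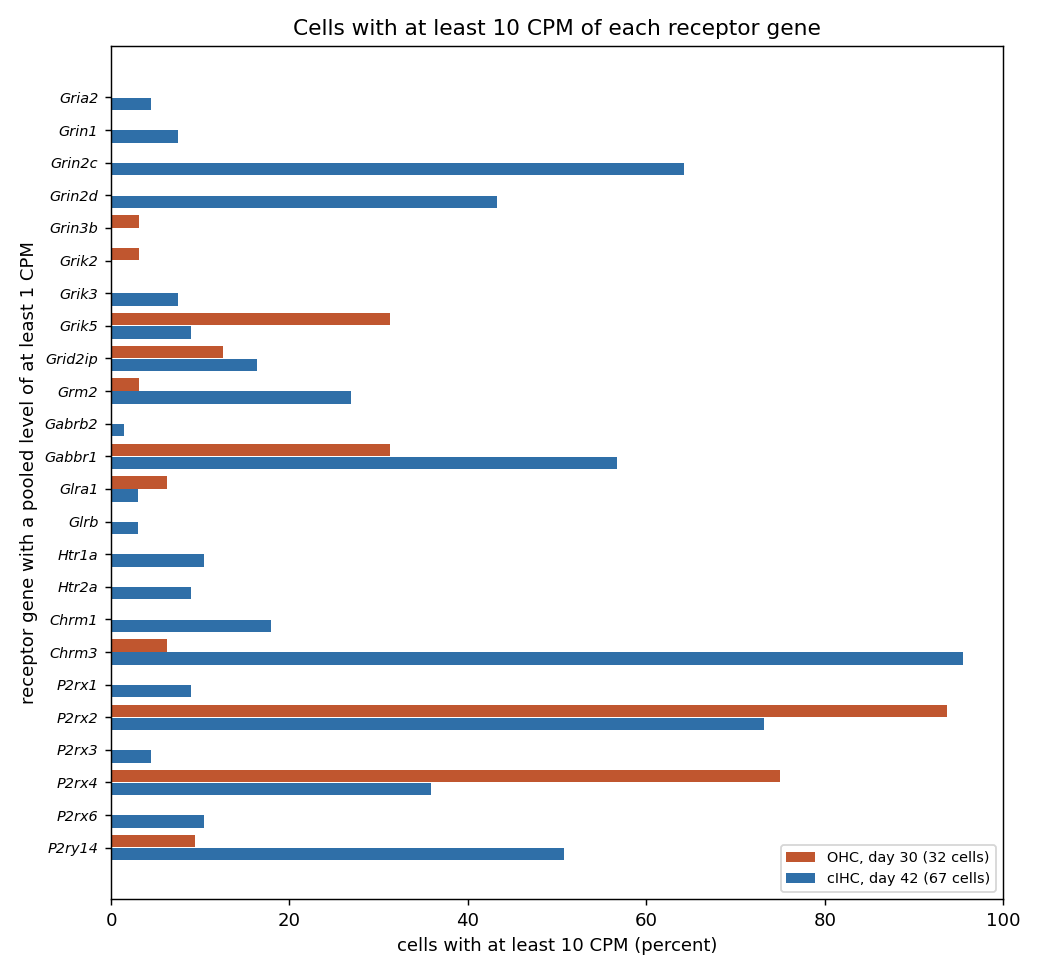
Percent of cells with at least 10 CPM of each of the 24 receptor genes with a pooled level of at least 1 CPM, OHCs in orange and cIHCs in blue. Chrm3 reaches 95.5% of cIHCs and P2rx2 reaches 93.8% of OHCs, while 15 genes stay under 20% in both groups.

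Partner subunits were then looked up in the same cell, at 10 CPM each. Of 55 cIHCs with Grin2c or Grin2d, 5 also had Grin1, which was at that level in 5 of all 67 cIHCs. Of 10 OHCs with Grik5, 1 had any of Grik1, Grik2 and Grik3, and of 6 such cIHCs none had. Any of these 3 genes was at that level in 1 of 32 OHCs and 5 of 67 cIHCs. Gabbr1 was found with Gabbr2 in 0 of 10 OHCs and 0 of 38 cIHCs. No cell had Gabbr2 at 10 CPM, so these shares could only be 0. The leading gene of each of these receptor types was thus mostly without its usual partner at 10 CPM, as the partner reached that level in few cells or none.

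P2rx2 and P2rx4, which can each form channels alone, were together in most OHCs with P2rx2. Both were at 10 CPM in 23 of the 30 OHCs with P2rx2 and in 17 of the 49 such cIHCs, and P2rx3 was with P2rx2 in 0 and 2. These shares are close to those of P2rx4 in all cells, 24 of 32 OHCs and 24 of 67 cIHCs. Chrm1 occurred at 10 CPM only in cells with Chrm3, 12 of 64, where Chrm3 was at that level in 64 of all 67 cIHCs. Counting a single read as presence gave 14 of 66 cIHCs for Grin1 with Grin2c or Grin2d and 34 of 56 for P2rx4 with P2rx2.

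**Figure D4:**
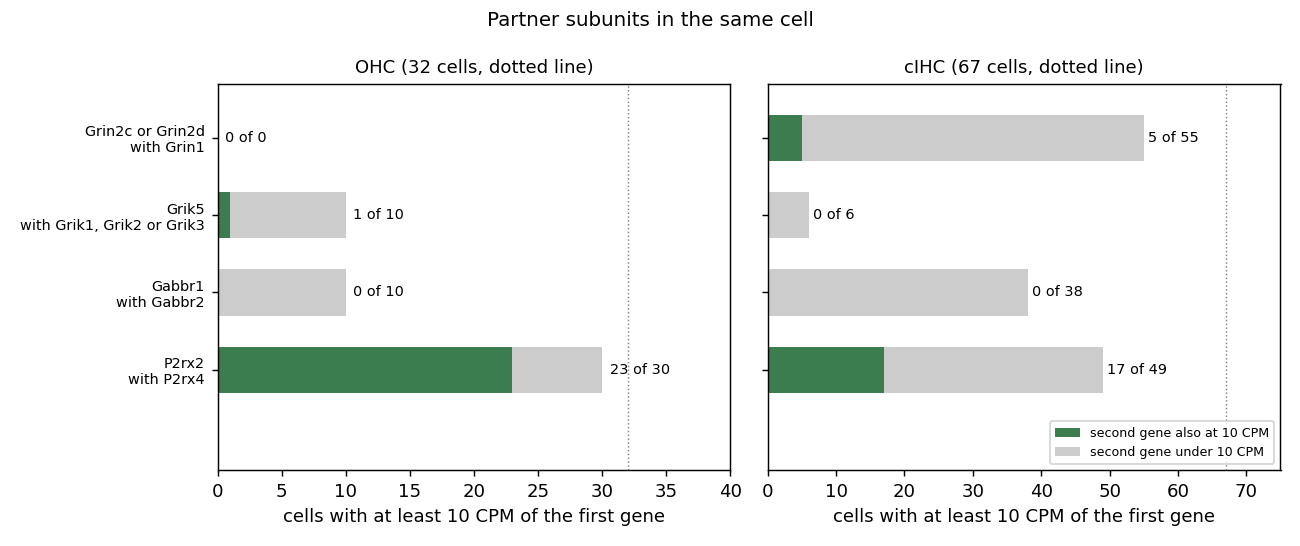
Number of cells with at least 10 CPM of the first gene of each pair, split by whether the second gene was also at 10 CPM (green) or not (grey), with OHCs on the left and cIHCs on the right and a dotted line at all cells. Printed numbers give cells with both of cells with the first, such as 5 of 55 for Grin1 in cIHCs and 23 of 30 for P2rx4 in OHCs.

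Per kilobase of merged exon, which allows levels of different genes to be set side by side, the order among the 9 leading genes differed between the groups below its top. In OHCs P2rx2 had 173.6 pooled CPM per kilobase, P2rx4 20.4, Grik5 5.27 and Gabbr1 3.77, with the other 5 under 1. In cIHCs P2rx2 was first at 46.2, followed by Chrm3 at 19.98, Grin2c at 8.20 and Gabbr1 at 4.42. Grm2, P2rx4 and Grin2d had 3.12, 3.10 and 3.08, and P2ry14 had 2.34 and Grik5 0.81. P2rx2 thus led in both groups, with P2rx4 next in OHCs and Chrm3 next in cIHCs, and all neighbours in either order overlapped in their ranges over cells.

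By cell, OHCs had between 0 and 5 receptor genes at 10 CPM, with a median of 2, and cIHCs between 2 and 11, with a median of 6. The summed level of the 86 genes had a median of 690.5 CPM per OHC (10.7 to 1446) and 403.6 CPM per cIHC (140.97 to 1298). More receptor genes thus shared a lower median total in cIHCs, in which more genes of any kind had reads. Rank correlations between leading receptor genes across cells of a group were weak: the largest among the receptor pairs with reads in 75% of cells was 0.24, for Chrm3 and P2rx2 over 67 cIHCs, and over the same cells P2rx2 had 0.25 with Tbx2 and Chrm3 had -0.05.

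Against all 10041 genes with at least 10 CPM in a group, the log2 ratios of Grin2d, Grin2c and Chrm3 stood at percentiles 98.5, 95.9 and 95.9, and that of Grm2 at 94.6. P2ry14 stood at 87.0 and Gabbr1 at 49.3. At the other end P2rx2 stood at 6.71, Grik5 at 4.16 and P2rx4 at 4.09.

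**Figure D5:**
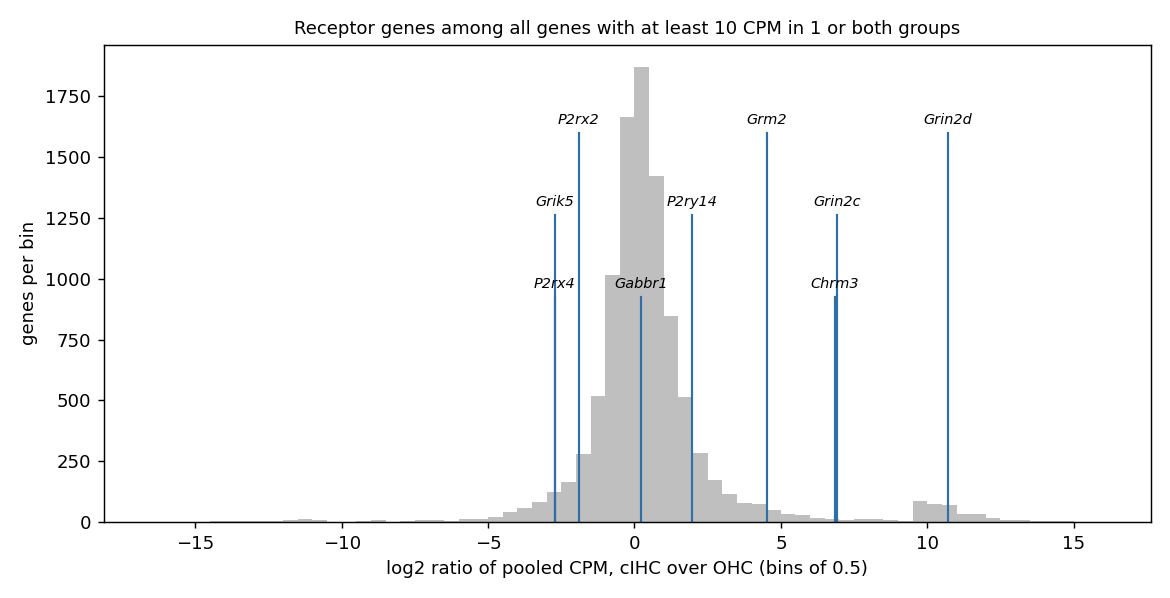
Histogram of log2 ratios (cIHC over OHC, bins of 0.5) of the 10041 genes with at least 10 CPM in a group, with vertical lines at the 9 receptor genes. Gabbr1 lies under the peak, and Grin2d lies in a separate bump of genes whose ratio is a bound because OHCs had no or few reads.

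Since several of the higher genes are known from neurons, neuron genes were read beside them. Of 12 listed, 10 had a ratio, 7 were past 2-fold higher and 1 lower, beside 42.0% and 18.8% of all genes. They summed to 452.6 pooled CPM in OHCs and 756.4 in cIHCs. The sum had a median of 414.5 CPM per OHC (35.3 to 1225) and 757.4 CPM per cIHC (292.5 to 1359), and the ranges overlap. Prph, which marks type II auditory neurons, had no read in any cell, Scn9a had none in cIHCs, and Rbfox3 went from 0.0041 to 48.2 CPM. Supporting cell genes summed to 54.9 and 42.7 pooled CPM (4 of 11 with a ratio higher, 4 lower), glia genes to 23.9 and 9.15 (2 of 7 higher, 5 lower) and blood genes to 4.50 and 5.73 (2 of 5 higher, none lower). The part of neuron genes in the receptor results was not tested. Without the cells in which supporting cell and glia genes summed to 100 CPM or more, the ratios of Chrm3 and Grin2c were 6.51 and 7.31.

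Cells with Xist at 10 CPM were 4 of 32 OHCs and 55 of 67 cIHCs, and cells with Y-linked genes at that level 24 and 12, so the mix of sexes differed between the groups. Within the Xist cells the log2 ratios of Chrm3, Grin2c, Grin2d and Grm2 were 10.29, 8.62, 7.62 and 7.30, and those of P2rx2, P2rx4 and Grik5 were -1.29, -2.56 and -4.35. Within the Y-linked cells they were 6.05, 6.60, 10.33 and 3.33, and -2.54, -2.60 and -2.05. These 7 genes were past 2-fold in the same direction in each split. The ratios of Grin2d are bounds in both splits, because no OHC had reads of it. Chrm3, Grin2c and Grm2 had reads in at most 3 of 32 OHCs. Among the Xist cells, with 4 OHCs, their OHC sums were at most 3 counts. Their ratios there thus rest on the floor too, and no rise can be read from them.

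Genes that release, bind, anchor or clear the transmitters were followed in 8 lists of 160 genes, of which 126 had a ratio. Past 2-fold, 62 were higher and 19 lower, beside 42.0% and 18.8% of all genes, with a median of 0.86 against 0.56 for all genes. Partners of AMPA, NMDA and kainate receptors had 7 higher and 6 lower of 16, with a median of -0.01. Olfm1, a secreted protein that binds AMPA receptor complexes, was at 253.3, 1072 and 3756 CPM in the lowest, median and highest OHC and at 0, 0.33 and 145.0 CPM in cIHCs, so that every OHC was above every cIHC. Its pooled level was 1154 CPM in OHCs and 21.7 CPM in cIHCs (log2 ratio -5.73). Cacng5, a relative of the AMPA receptor chaperone stargazin, was named after its values were seen. It had 94.9 CPM in OHCs, with reads in 21, and 0.19 CPM in cIHCs, with reads in 1 (log2 ratio -8.97). Leaving out the top cell of either group removed all its cIHC reads, so the -13.72 then found is a bound.

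The shares of all genes past 2-fold, 42.0% higher and 18.8% lower, stand beside the counts of each list that follows. Glutamate scaffolds had 8 higher and 1 lower of 20 (median 0.15), and glutamate transport and metabolism 4 and 2 of 9 (median 0.90). Slc17a8, the vesicular glutamate transporter of IHCs, was higher in cIHCs by 4.09 on the log2 scale. GABA and glycine partners had 6 higher and 5 lower of 17 (median -0.22). Gabarapl1, a relative of the GABA-A receptor-associated protein that also acts in autophagy, was at 416.4 CPM in OHCs and 101.0 CPM in cIHCs (-2.04), with reads in 32 and 65 cells, and shares 570 exon bases with 1700101I11Rik. The GABA-making enzyme gene Gad1 and the vesicular carrier Slc32a1 had no reads.

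Genes of purine release and breakdown had 9 higher and 3 lower of 17 (median 1.15). Slc29a1, which carries adenosine across the membrane, was at 290.7 CPM in OHCs and 140.1 CPM in cIHCs (-1.05), with 275 exon bases shared with Gm17080. Panx1, a large-pore channel that can release ATP and named after its values were seen, had no read in OHCs and 76.2 CPM in cIHCs, with reads in 51 of 67, a log2 ratio of at least 12.59. Panx1 was thus higher in the cIHCs while P2rx2 and P2rx4 were lower.

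Acetylcholine handling had 6 higher and 1 lower of 8 (median 4.80), led by Lypd6, a Ly6 protein that binds nicotinic receptors, also named after its values were seen. Lypd6 had no read in OHCs and 60.4 CPM in cIHCs, with reads in 30 cells (log2 ratio at least 12.25). Monoamine genes had 5 higher and none lower of 6 (median 5.06), with no read of Th, Dbh, Tph1, Tph2, Slc6a2, Slc6a3 or Maob. G protein effectors had 17 higher and 1 lower of 33 (median 1.23). Gnai3, an inhibitory G protein subunit of the kind that Grm2 and Gabbr1 act on, was at 64.6 CPM in OHCs and 155.7 CPM in cIHCs (1.27), with reads in 19 and 66 cells.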

How the data were processed

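Single cells were picked by hand, converted to full-length cDNA with the Smart-Seq HT kit and tagmented with a TruePrep kit, per the labels' protocols. The authors deposited 1 table of whole-number read counts per gene and cell, without normalization as judged from the values. The submitters' processing notes name HISAT2 2.2.1, StringTie 2.2.1, featureCounts 2.0.1 and mm10; strand setting and annotation are not given in the sources used here. Each column was assigned to a cell and a group by its title. No cell was left out, no doublet caller was run on these singly picked cells, and 0 pairs of columns were identical. OHCs of an earlier study that the design text mentions were not analysed here.

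Counts were summed over the cells of a group and divided by the group total. Exact 95% intervals were taken from the Poisson distribution for levels, the conditional binomial for ratios and Clopper-Pearson for shares. For 0 of n cells the limit is 3 of n. No ratio was given where both sums were at most 3 counts. No p-value was computed. The ratio step was tested on simulated data. Positions, exon lengths and overlaps come from GENCODE M21, which holds all 86 symbols described, and promoter windows from RefSeq. A further 4 genes that the symbol rule takes are not reported here and enter only the values over all genes. The members, the related lists and the marker lists were chosen with earlier results of these data known. Full values are given for genes with at least 10 CPM in a group and for the highest gene of each other family. Genes with more than 3 counts have shorter values, and the rest names. Related genes are given with values from 100 CPM and 2-fold, at most 3 per list. Cacng5, Panx1 and Lypd6 were under 100 CPM and are exceptions, named after their values were seen. There were 15 alternatives, given in the closing section. Thinning drew 5770000 reads per cell, which 29 OHCs and 66 cIHCs reached, and the cells under that depth were left out. TMM factors came from edgeR 4.0.16 in R 4.3.3; other steps used scipy 1.17.1, pandas 2.3.3, numpy 2.4.6 and matplotlib 3.10.9 in Python 3.11.15.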

Additional observations from a re-analysis of the deposited data

How the results depend on the processing

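No paired analysis was possible because title numbers merely count cells and no result comes from a test. The number of receptor genes past 2-fold higher in cIHCs, 24 of 39, was 16 of 24 at 1 CPM or more and 5 of 9 at 10 CPM or more, where fewer genes enter. With medians of CPM per cell, which leave 2 genes, it was 0 of 2. It was 19 of 32 among cells with Xist reads and 17 of 31 among cells with Y-linked reads. Without cells holding macrophage genes it was 20 of 34, and without the highest cell of each gene 20 of 26. Under the other alternatives it was between 22 and 24, of 35 to 39 genes. The number lower, 11 of 39, was 6 of 24 at 1 CPM, 3 of 9 at 10 CPM and 2 of 2 with medians per cell. It was 7 of 32 among cells with Xist reads and 6 of 35 in thinned cells. Without the highest cell of each gene it was 3 of 26, since 7 of the 11 had reads in 1 to 3 OHCs. In the others it was between 9 and 11, of 31 to 39 genes. Thinning kept 29 of 32 OHCs, and Grik2, Htr5a and P2ry4, each with reads in 1 OHC, had no OHC reads left there. No share of all genes is given beside these counts except at 1 and 10 CPM. The median log2 ratio of 2.29 became 1.73 without the 25% of cells with the fewest genes and -5.29 with medians per cell, over 2 genes; it was 6.47 at 1 CPM, 5.82 without the highest cell of each gene, 4.04 without cells holding macrophage genes, 3.98 in thinned cells and 3.73 without cells holding supporting cell and glia genes, and between 1.97 and 2.78 in the others.

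Among genes past 2-fold, ratios that changed sign were Gabbr2 (0.76), Gabrb1 (0.40) and Grin3a (-2.45) among cells with Y-linked reads, Gabrb1 in thinned cells (1.45), Grin3a without cells holding macrophage genes (-4.07), and Glra1 (1.69), Grik1 (-0.55), Grik4 (-1.89) and P2ry14 (-0.48) among cells with Xist reads. Of the 4 genes within 2-fold, Gabbr1 changed sign under 1 alternative (-0.91, Xist reads), Htr2b under 2 (lowest -1.89), Grid2ip under 4 (highest 6.00) and P2ry12 under 5 (lowest -2.78). In Gabbr2, without reads in cIHCs, and in Grik1, Htr2b and P2ry12, without reads in OHCs, the floor of 3 counts made the change. A group without reads cannot be the higher one, so these are no reversals. Grik4 had only 3 counts in OHCs, no more than the floor. The thinned cells lack the OHC that held 88.6% of its group's Gabrb1 reads. For the other genes, Gabrb1 included, the cause was not tested. P2rx2, P2rx4, Grik5, Chrm3, Grin2c, Grin2d and Grm2 kept their direction and stayed past 2-fold under each alternative that gave them a value. Depth limits what can be said of genes without reads: 0 of 32 OHCs allows a share of cells with reads of up to 9.38% and 0 of 67 cIHCs up to 4.48%, but genes between 1 and 10 CPM in both groups had reads in an average of 23.8% of OHCs and 31.9% of cIHCs, and shares of cells are set partly by the lower detection in OHCs.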
